A study of Mus musculus with 2 samples.

Results

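The Hedgehog genes described here are Shh, Ptch1, Smo, Gli1, Gli2, Gli3, Hhip, Sufu and Gas1, which were chosen by name as the ligand, receptors, inhibitors and transcription factors of one signalling pathway. These 9 genes were looked up among the 16302 gene symbols of the joined expression tables. Of them, 8 were listed in both libraries and Gli1 in neither. The data are RNA-sequencing values from astrocytes grown from the dentate gyrus (DG) of adult C57BL/6 mice, with 1 library from wild type (WT) mice and 1 from mice without β-arr1, the arrestin encoded by Arrb1. The knockout is a germline one, so every cell of the KO culture carried it, and both cultures were grown in medium with serum, shaken to detach dividing cells, oligodendrocyte progenitors and neurons, and collected in Trizol at 1000000 cells. The series describes the cDNA libraries as pooled, and the age and sex of the animals are not given in the sources used here for these cultures. As each genotype has 1 library, no replicate error could be computed and no difference was tested.

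Sonic hedgehog, the product of Shh, is a secreted lipid-modified protein. It binds Ptch1, which otherwise keeps the membrane protein Smo inactive. Free of Ptch1, Smo gathers in the primary cilium and lets the zinc finger factors Gli2 and Gli3 escape processing into repressors and the hold of Sufu. In the embryonic neural tube, the pathway raises transcription of Gli1, Ptch1 and Hhip and lowers that of the coreceptor genes Gas1, Cdon and Boc. In the adult hippocampus, Shh is known to sustain the neural precursors of the subgranular zone, and β-arrestins are known to bind activated Smo.

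The values are FPKM, fragments scaled to the length of the transcript and to the size of the library, so levels of different genes can be compared. The WT library was estimated to hold 9540000 mapped fragments and the KO library 9820000. From these, the number of fragments per gene and a 95% interval of each level (exact Poisson) and of each ratio (Clopper-Pearson) were estimated. Such intervals hold counting error alone and leave out any variation among animals or cultures. A ratio of KO vs. WT above 3/2 or below 2/3 was taken as past the limits the study uses, over the 12646 genes that reached 1 FPKM in either library or in both. Where a pair of values is given without labels, WT comes first. The median log2 ratio of the 12171 of these genes listed in both tables was 0.02. Arrb1 itself was at 7.62 FPKM in the WT and 2.72 FPKM in the KO library, giving a KO/WT ratio of 0.358 (counting interval, 0.301 to 0.424). All 8 astrocyte markers examined were present, and they summed to 299.5 and 337 FPKM. Markers of other cells were present too, with 232 and 213 FPKM for 5 microglial genes and 2994 and 2750.0 FPKM for 6 fibroblast and mural genes, of which Acta2 made up 2478 and 2469 FPKM. Neural precursor markers summed to 147 and 194 FPKM, neuronal markers, nearly all of it Tubb3, to 46.2 and 62.5 FPKM, and endothelial markers to 40.8 and 28.6 FPKM. Cdh5 made up most of the endothelial sum, at 31.8 and 16.1 FPKM, while Pecam1 was above 3/2. In such mixed RNA, fewer cells of a type and less RNA per cell cannot be told apart.

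Of the 9 Hedgehog genes, 7 reached 1 FPKM. The ratio was above 3/2 in 1 of them, Shh, and below 2/3 in 1, Gas1, while 5 lay between the limits. Among all genes analysed, 9.56% were above 3/2 and 8.26% below 2/3, and 1 gene of 7 on either side is too few to be read as more or less than that. The counting interval left out 1 for 6 of the 7 genes, 4 of them higher and 2 lower in KO. Taking the shortest annotated transcript for length left 3 (Shh, Smo and Gas1), and reducing the fragments to 1 in 4 left 2 (Shh and Gas1), so Ptch1, Gli3 and Sufu lost this call in both. Shh and Smo have 1 annotated transcript each, so the choice of the shortest could not change their call. For Ptch1 it put 809 bases in place of 4305, and for Gli3 466 in place of 8170. With the longest transcript, the interval left out 1 in 22.4% of all genes on the higher side and 18.5% on the lower side. Such shares were not computed for the shortest transcript or the reduced fragments, so those counts have no background to be read against. The median log2 ratio of the 7 genes was 0.33.

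**Figure D1:**
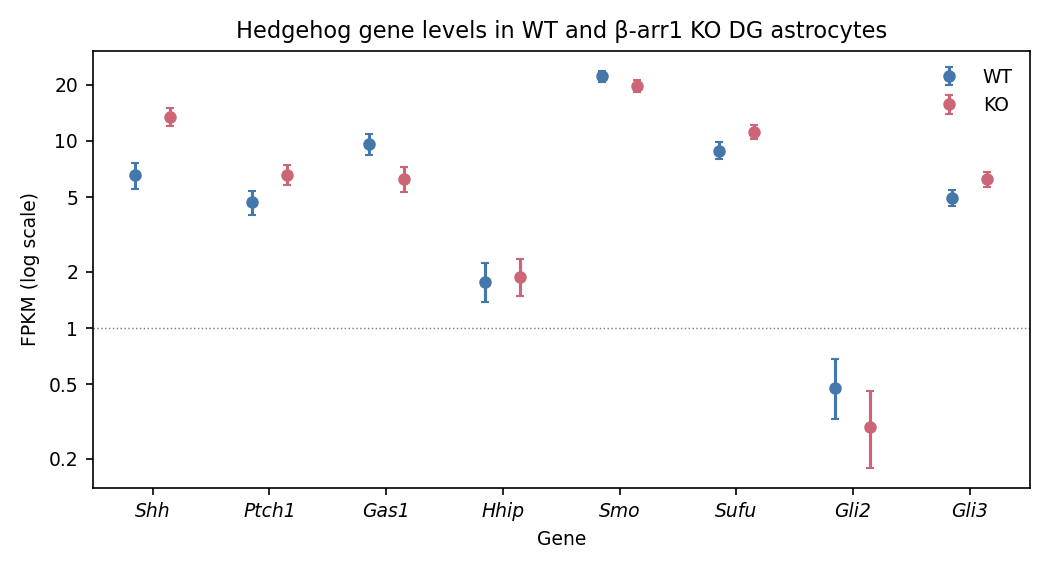
Level of each listed Hedgehog gene in the WT (blue) and β-arr1 KO (red) library, in FPKM on a log axis, with 1 library per genotype and bars for the 95% counting interval. Shh stood at 6.55 FPKM in the WT and 13.5 FPKM in the KO library, Gas1 went the other way, and Gli2 lay under the dotted line at 1 FPKM in both.

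Shh (NCBI gene 20423) lies on chromosome 5 from 28783380 to 28793641, on the minus strand in mm9, and has 3 exons. It was at 6.55 FPKM in WT (level interval, 5.57 to 7.65) and 13.5 FPKM in KO (12.1 to 15.0). The level intervals of the libraries did not overlap. The ratio was 2.06, with an interval of 1.70 to 2.50 that lay wholly above 3/2. Among the 12171 genes listed in both tables, 2.65% had a log2 ratio at or above that of Shh, which was 1.04. These are RNA levels. The study also found the Shh change by qRT-PCR, whereas its ELISA gave a decreasing trend of SHH protein in medium from KO astrocytes. The bounds of the Shh row were the same in both tables, and no other listed row overlapped it. GENCODE annotates exons of 9530036O11Rik and Gm17493 on the opposite strand within Shh. Neither symbol was listed, and the sources used here do not say whether the library kept strand, so reads from these transcripts cannot be told apart from Shh reads.

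The 5 genes whose pair of levels was closest to that of Shh, over the 2 libraries, were Chl1, Slc2a3, Olig2, Gdf6 and Aqp4, at log2 distances of 0.03 to 0.11. Olig2, a factor of the oligodendrocyte lineage, was at 6.19 and 13.1 FPKM, and Aqp4, the astrocyte water channel, was at 7.05 and 13.5 FPKM. Markers of the oligodendrocyte lineage, whose progenitors the shaking was meant to detach, were present. Of 7 of them, Olig1, Olig2, Pdgfra and Sox10 were above 3/2 and none was below 2/3, and the sum was 85.5 and 127 FPKM. Of the 8 astrocyte markers, S100b, Slc1a2 and Aqp4 were above 3/2, although Gfap was at 189 and 192 FPKM. Their part in the Shh difference was not tested.

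Ptch1 (NCBI gene 19206) encodes the receptor and is itself a target of the pathway. It was at 4.69 FPKM in WT (4.04 to 5.42) and 6.57 FPKM in KO (5.81 to 7.41), a ratio of 1.40 with an interval of 1.16 to 1.70. The level intervals did not overlap, and the ratio lay below 3/2 while its interval included it. The 2 libraries differed in the extent of the row, as they did for 39.7% of the 12171 analysed genes listed in both tables. On chromosome 13, on the minus strand, the WT row ran from 63612358 to 63667104 and the KO row from 63609661 to 63674478.

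GENCODE gives Ptch1 4 transcripts. Ptch1-201, with 23 exons and 4305 bases, starts at 63666828, and the WT row ended 276 bases upstream of that start. Ptch1-203, a transcript of 7 exons and 849 bases, starts at 63674474, and the KO row ended 4 bases upstream of that start. At the other end, the KO row ran 2697 bases farther, past the end of Ptch1-202. The KO row thus took in the first exon of Ptch1-203 and the whole last exon of Ptch1-202, of which the WT row held none and a small part. The deposited value is 1 number per gene, so it does not show how the fragments were shared among transcripts, and the interval of the ratio takes the same length in both libraries.

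As the rows ended near separate starts, the 1000 bases upstream of each annotated start were searched for the GLI consensus GACCACCCA, exactly and on both strands, in the NCBIM37 genome, which is mm9. This search was chosen after the bounds of the rows had been seen. The motif lay upstream of 2 of the 4 Ptch1 starts, and of 0.866% of 45982 annotated protein-coding starts. Upstream of Ptch1-201 it ran from 63667743 to 63667751, 915 bases before the start and within the first intron of Ptch1-203. Upstream of Ptch1-203 it ran from 63674773 to 63674781, 299 bases before the start and outside the annotated gene. Both are shown with 26 bases on either side, on the minus strand 5′ to 3′, with the motif or its reverse complement TGGGTGGTC in capitals, because they lie beside the 2 starts at which the rows differed.
Ptch1-201 site, chr13:63667717-63667777: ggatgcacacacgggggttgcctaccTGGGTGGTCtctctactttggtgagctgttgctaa
Ptch1-203 site, chr13:63674747-63674807: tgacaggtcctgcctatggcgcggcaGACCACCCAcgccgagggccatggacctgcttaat

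The sites read in opposite orientation on the strand of the gene. A match of letters is not evidence of binding, and no binding was measured here. The RefSeq promoter windows of GRCm38.p6 hold 250 bases before and 50 bases after a gene's start. They had entries for 7 of the Hedgehog genes and none for Shh and Gli1. None of the 7 windows held the motif exactly or with 1 mismatch. The exact motif was in 0.253% of all 32851 windows, and a form with at most 1 mismatch in 6.74%. In the 1000 bases upstream of the annotated starts of Smo, Gli2, Gli3, Hhip, Sufu and Gas1, no exact motif was found. No such count was made for Shh and Gli1.

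**Figure D2:**
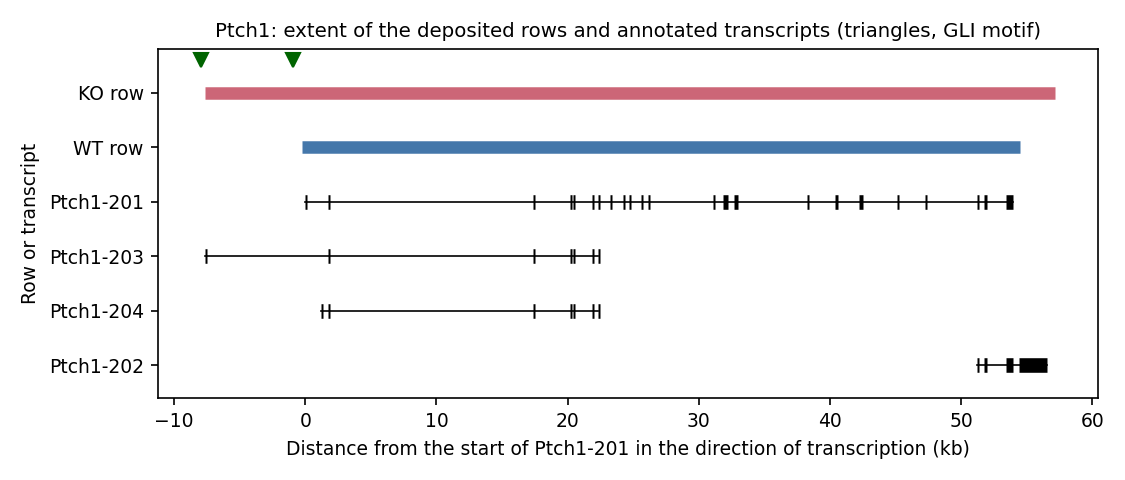
Extent of the Ptch1 row in the KO (red) and WT (blue) tables above the annotated transcripts, with exons as black blocks. The x axis gives the distance in kb from the start of Ptch1-201 in the direction of transcription, the KO row begins at -7.65 kb and the WT row at -0.276 kb, and triangles mark the GLI motif at -7.95 and -0.923 kb.

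Gas1 (NCBI gene 14451) encodes a membrane-anchored coreceptor that helps Shh bind to Ptch1. The gene has 1 exon and lies on chromosome 13 from 60275766 to 60278896, on the minus strand, with the same bounds in both tables. It was at 9.59 FPKM in WT (8.45 to 10.8) and 6.27 FPKM in KO (5.36 to 7.28), and these intervals did not overlap. Its ratio of 0.653 lay just below 2/3, and its interval of 0.535 to 0.796 included that limit but not 1. With 1 FPKM added to both libraries the ratio was 0.686, inside the limits. Among the genes listed in both tables, 6.33% had a ratio at or below that of Gas1.

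The other coreceptors, which are not among the 9 genes, were read beside Gas1. Cdon (NCBI gene 57810), on chromosome 9 from 35229066 to 35315237 in the WT table, was at 18.6 FPKM in the WT and 6.34 FPKM in the KO library. Its ratio was 0.341 (interval, 0.305 to 0.381), and 131 of the 12171 genes had a ratio at or below it. The Cdon row started 249 bases farther downstream in KO. Boc, its close relative, was at 9.45 and 9.05 FPKM, a KO/WT ratio of 0.958 with 1 inside the interval of 0.829 to 1.11. The levels of Gas1, Cdon and Boc summed to 37.6 and 21.7 FPKM, a ratio of 0.576. Shh was at 0.683 times the level of Gas1 in WT and 2.15 times in KO.

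Several markers of connective tissue and choroid plexus, though not all, were lower in KO beside Gas1 and Cdon. Of the 6 fibroblast and mural genes, 4 were analysed and 3 were below 2/3. Col1a1 was at 420.5 and 237 FPKM, Col3a1 at 88.3 and 43.3 FPKM, and Dcn at 6.11 and 0.831 FPKM, while Pdgfrb was listed in neither library and Lum was not listed in KO. Acta2 differed little, at 2478 and 2469 FPKM, and made up most of the sum of the 6 genes, 2994 and 2750.0 FPKM. Of the 4 choroid plexus and ependymal genes, Ttr (23.8 and 0.290 FPKM) and Folr1 (53.1 and 13.6 FPKM) were below 2/3 and Foxj1 was above 3/2. The sum of these 4 was 91.6 and 38.3 FPKM. The part of these markers in the Gas1 and Cdon differences was not tested.

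Smo (NCBI gene 319757), the signal transducer, had the highest level of the 8 listed genes in both libraries. It lies on chromosome 6 from 29685497 to 29711366, on the plus strand, with the same bounds in both. It was at 22.2 FPKM in WT (20.6 to 23.8) and 19.8 FPKM in KO (18.3 to 21.3). The level intervals overlapped. The ratio was 0.893, and its interval of 0.805 to 0.991 came close to 1.

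Sufu (NCBI gene 24069), which holds Gli proteins in the cytoplasm, lies on chromosome 19 from 46471407 to 46563287, on the plus strand. It was at 8.87 FPKM in WT (7.98 to 9.82) and 11.2 FPKM in KO (10.2 to 12.2). The KO level was higher without overlap of the level intervals, and the ratio of 1.26 (interval, 1.10 to 1.45) lay between the limits. Hhip (NCBI gene 15245), a membrane protein that binds and traps the ligand and a target of the pathway, lies on chromosome 8 from 82489750 to 82581907, on the minus strand. It was at 1.76 FPKM in WT (1.38 to 2.21) and 1.88 FPKM in KO (1.49 to 2.33). About 74 and 81 fragments lay behind the ratio of 1.07, so that the interval, 0.768 to 1.48, held 1. At this depth no difference in Hhip was detectable. The ratio of Shh to Hhip within a library was 3.71 in WT and 7.17 in KO.

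**Figure D3:**
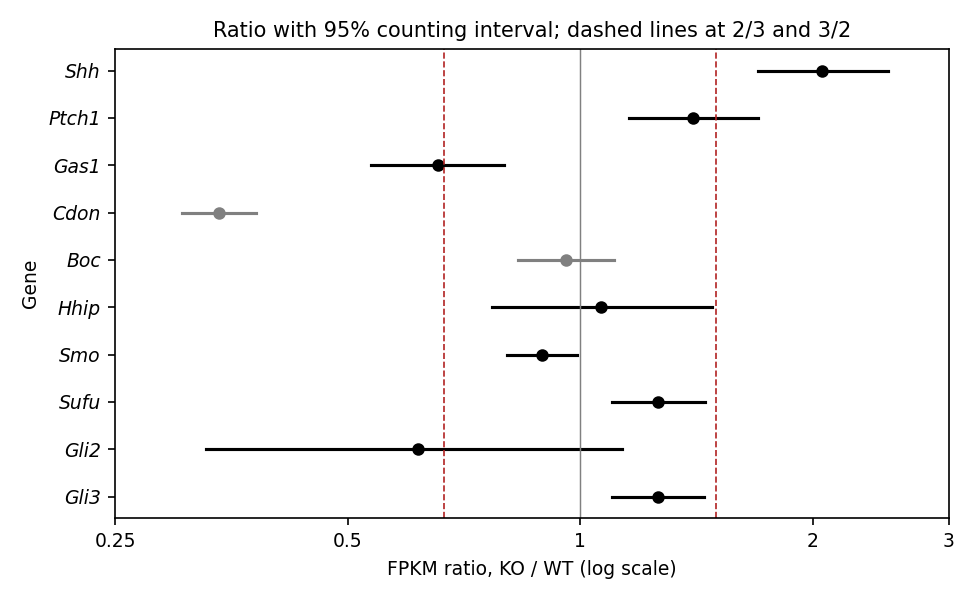
Ratio of FPKM in β-arr1 KO vs. WT for each listed Hedgehog gene (black) and for the coreceptors Cdon and Boc (grey), on a log axis, with the 95% counting interval as a line and dashed lines at 2/3 and 3/2. The interval of Shh lies wholly above 3/2, that of Cdon wholly below 2/3, and that of Gas1 crosses 2/3.

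The Gli factors share a DNA-binding domain of zinc fingers and differ in what they do at their targets. Gli3 (NCBI gene 14634), known mainly as a repressor once cleaved, was at 4.96 FPKM in WT (4.47 to 5.48) and 6.24 FPKM in KO (5.70 to 6.82). These level intervals did not overlap, and the ratio of 1.26 (interval, 1.10 to 1.44) lay between the limits. The Gli3 row, on the plus strand of chromosome 13, ended at 15821858 in both tables and began at 15555053 in the WT table and 15555556 in the KO table. The KO start was 503 bases farther downstream and equal to the annotated start of the transcript Gli3-002. Gli2 (NCBI gene 14633), the main activator, was at 0.481 FPKM in the WT and 0.296 FPKM in the KO library, under the minimum of 1 FPKM. About 30 and 19 fragments lay behind these levels. The interval of its ratio of 0.617 ran from 0.328 to 1.13, and a difference was not detectable at this depth. Gli2 lies on chromosome 1 from 120730638 to 120950196, on the minus strand, with the same bounds in both tables. The level of Gli3 was 10.3 times that of Gli2 in WT and 21.1 times in KO.

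Gli1, whose transcription is widely used as a readout of the pathway, was listed in neither table. GENCODE places it on the minus strand of chromosome 10 from 126766945 to 126778645. The one row that touched this span in either table was that of Arhgap9, at 5.88 and 4.37 FPKM, which ends inside the last bases of Gli1. The tables do not tell a value of 0 from an estimate that was not made, and no ratio was computed.

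In the order of levels, WT ran Smo, Gas1, Sufu, Shh, Gli3, Ptch1, Hhip and Gli2. Neighbours whose counting intervals overlapped were Gas1 and Sufu, and Gli3 and Ptch1. The KO order was Smo, Shh, Sufu, Ptch1, Gas1, Gli3, Hhip and Gli2, where the intervals overlapped between Shh and Sufu, Ptch1 and Gas1, and Gas1 and Gli3. Shh thus stood at the fourth place in WT and the second in KO, and Gas1 at the second and the fifth. The levels of the 8 genes summed to 59.0 and 65.7 FPKM, of which Shh made up 11.1% and 20.5% and Smo 37.5% and 30.1%.

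Of 57 further genes of the pathway, 56 were listed and 51 analysed. Of the 51, 4 (7.84%) were above 3/2 and 4 (7.84%) were below 2/3, and their median log2 ratio was -0.04, beside 0.02 over all genes. These shares are no higher than the background. In a list of 8 ligand and release genes, 5 were analysed, with 2 above 3/2 and none below 2/3. Scube1 (0.683 and 0.346 FPKM) and Scube2 (0.556 and 0.0601 FPKM) were lower in KO but under the minimum of 1 FPKM, so they were not counted. Hhat, inside the limits, had a ratio of 0.711. Disp2, a relative of the transporter that releases the ligand, was at 1.64 and 3.08 FPKM, which gave a KO/WT ratio of 1.88 (counting interval, 1.47 to 2.42). Disp1, which carries out that release, was at 10.3 and 8.35 FPKM, a ratio of 0.812. Scube3, a secreted helper of release with the highest mean level of this list, was at 10.3 and 12.8 FPKM. Dhh, a second Hedgehog ligand, was at 0.668 FPKM in the WT and 2.92 FPKM in the KO library, for a ratio of 4.37. The KO row of Dhh, however, spanned the neighbouring gene Rhebl1, which had 2.02 FPKM in the WT table and no row in the KO table. Dhh and Rhebl1 together were at 2.68 and 2.92 FPKM, a ratio of 1.09. Ihh, the third ligand, had 0.0461 FPKM in the WT table and no row in the KO table. Shh was therefore the ligand gene with the highest level in both libraries.

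Among 6 surface binders, 5 were analysed, with 1 above 3/2 and 2 below 2/3. Besides Cdon, the heparan sulfate proteoglycan Gpc3, which competes with Ptch1 for the ligand, was at 4.56 FPKM in the WT and 1.17 FPKM in the KO library, giving a KO/WT ratio of 0.256 (counting interval, 0.154 to 0.408). The related Gpc5 was at 0.849 and 2.29 FPKM, a ratio of 2.70 from an estimated 16 and 44 fragments (interval, 1.49 to 5.12). Lrp2, an endocytic receptor that also binds Shh, had the highest level of this list and differed little, at 57.4 and 54.9 FPKM.

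Of 8 regulators and partners of Smo, 1 was below 2/3, Arrb1 itself, and 7 lay between the limits. Arrb2, the other β-arrestin gene, was at 31.6 and 23.3 FPKM, and Adrbk1, the kinase that phosphorylates Smo, was at 39.2 and 35.6 FPKM. Csnk1a1, a casein kinase acting on Smo and Gli proteins, had the highest level of this list, at 129 and 141 FPKM. Of 16 genes for the processing and degradation of Gli proteins, 1 was above 3/2, 1 was below 2/3 and 14 lay between. Btrc, which recognises phosphorylated Gli proteins for the ubiquitin ligase, was at 13.9 FPKM in the WT and 6.30 FPKM in the KO library, giving a KO/WT ratio of 0.454 (counting interval, 0.401 to 0.514). Its row had the same bounds in both tables, and no other listed row overlapped it. Itch, another ubiquitin ligase, was not listed in WT and was at 14.9 FPKM in KO. In the WT table its locus lay inside the row of Dynlrb1, and both genes together came to 211 and 199.6 FPKM. Prkar1a, a regulatory subunit of protein kinase A, had the highest level of this list, at 164 and 189 FPKM.

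None of 10 genes for transport in the primary cilium was past the limits, and their ratios lay between 0.812 and 1.24. Tulp3, which brings membrane receptors into the cilium, had the highest level of these, at 28.5 and 26.4 FPKM. Of 10 targets other than the 9 Hedgehog genes, 7 were analysed and none was past the limits. Ccnd1, the cyclin D1 gene, was at 541 and 727 FPKM, a ratio of 1.34, and Foxm1, a factor of dividing cells, had a ratio of 1.38. The bounds of the Foxm1 row differed between the tables, and a row of Rhno1 overlapped it. Foxm1 and Rhno1 together were at 17.8 and 19.5 FPKM, a ratio of 1.10. Bmp4 had the lowest ratio of these 7, at 0.669 (38.7 and 25.9 FPKM), and was below 2/3 once the libraries were rescaled to a median ratio of 1 or to equal upper quartiles. These genes respond to many other signals as well.

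**Figure D4:**
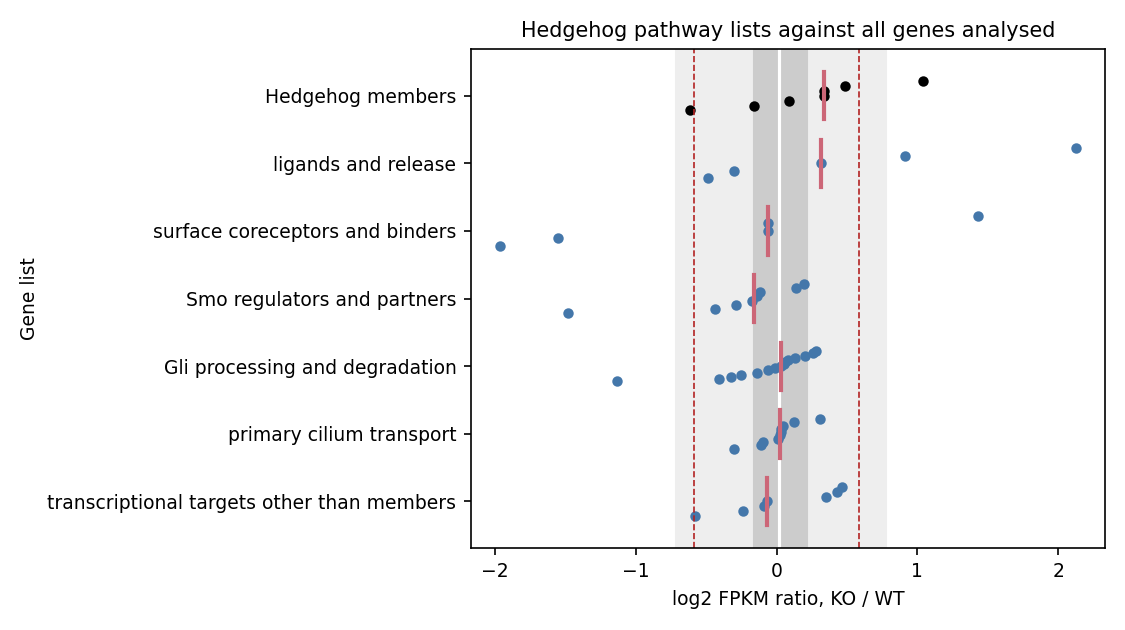
Log2 ratio of FPKM, β-arr1 KO vs. WT, for the 7 analysed Hedgehog genes (black) and each list of further pathway genes (blue), with the median of each list as a pink line and dashed lines at the log2 of 2/3 and 3/2. The dark grey band runs from the 25th to the 75th and the light grey band from the 5th to the 95th percentile of all genes, with their median of 0.02 as a white line, and the points farthest out are Dhh on the right and Gpc3 on the left. Itch is not drawn because it was listed in one table only.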

How the data were processed

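RNA from cultured DG astrocytes of WT and β-arr1 KO mice was sequenced as read pairs of 100 bases, with 1 library per genotype. According to the study's methods and the submitters' processing notes, the authors aligned the reads to mm9 with TopHat 1.4.0 and estimated expression with Cufflinks (version not given in the sources used here), and they deposited 1 FPKM value per gene and library. FPKM values are already scaled to transcript length and library size, and each table lists values above 0 only. Genotypes came from the sample labels.

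The tables were joined by symbol, the first row being kept where a symbol was repeated (55 rows in WT and 69 in KO), and 1 was added to every start. The 9 Hedgehog genes and all lists were chosen with earlier results of these data known. Besides the 9, the rule named each listed pathway gene past 3/2 or 2/3, the gene of highest mean level in each list and the 5 genes nearest to Shh in log2 FPKM. A few others (Boc, Disp1, Ihh, Hhat, Scube1, Scube2, Arrb2, Adrbk1, Foxm1, Bmp4 and marker genes) were named after their values were seen. No pseudocount was used. Depth was estimated from genes under 0.15 FPKM with 1 annotated transcript longer than 1000 bases. Their values fell within 5% of a step of 1, 2 or 3 fragments in 69.3% of 417 genes in WT and 70.0% of 436 in KO, with an allowance of 170 bases taken from the length. Fragments used the longest GENCODE transcript of NCBIM37, found by symbol for 15650 of the 16302 genes. Disp1 had no match and no interval. The computation was tested on simulated data. A comparison of the Gli proteins was planned and not run. Python 3.11.15, numpy 2.4.6, pandas 2.3.3, scipy 1.17.1, matplotlib 3.10.9 and pysam 0.24.0 were used.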

Additional observations from a re-analysis of the deposited data

How the results depend on the processing

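Adding 0.1 or 1 FPKM, rescaling the libraries (equal totals, equal upper quartiles or a median ratio of 1), summing rows that share a symbol and summing overlapping loci kept all 56 ratios of the 8 listed Hedgehog genes within their counting intervals. The summing of rows left each of these ratios unchanged, and a rescaling multiplies all genes by a common factor, so these settings could move them little. Shh ranged from 1.92 to 2.06 and Gas1 from 0.642 to 0.686. The count of 2 Hedgehog genes past the limits became 1 with 1 FPKM added and 1 with limits of 2 and 1/2, both without Gas1, and 3 with a minimum of 0.1 FPKM, which takes in Gli2. Of the further pathway genes, 8 were past the limits. A minimum of 5 FPKM left 4, a minimum of 1 FPKM in both libraries 5 and the same locus bounds 5, as fewer genes were then counted, and summing overlapping loci left 6, without Dhh and Itch. The count was 9 with a median ratio of 1 or equal upper quartiles, which put Bmp4 below 2/3, and 10 with a minimum of 0.1 or 0.5 FPKM. The counting interval left out 1 for 6 Hedgehog genes, for 3 (Shh, Smo and Gas1) with the shortest annotated transcript, and for 2 (Shh and Gas1) with fragments reduced to 1 in 4. The shortest transcript could not change the call of Shh or Smo, which have 1 annotated transcript each. The share of all genes was computed with the longest transcript only. Gli2 and Hhip are limited by depth. No paired analysis was possible because there is 1 library per genotype.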
